A study of Mus musculus with 96 samples.

Results

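The RNA of the glucocorticoid receptor and of 7 genes that it is known to induce was followed through 2 circadian days in mouse liver. The 8 genes (Nr3c1, Fkbp5, Tsc22d3, Sgk1, Lpin1, Tat, Mt1 and Mt2) were found by symbol among the 13094 entries of the deposited table, and each of the 8 passed the filter that left 9901 entries for testing. LKO mice were Rbbp5 (flox/flox); alb-cre(+/-), so that Cre recombinase, driven by the albumin promoter, removes the floxed segment mainly in hepatocytes. Flox mice were Rbbp5 (flox/flox); alb-cre(-/-) littermates, called WT in the sample titles. All were C57BL/6J males of 3 to 4 months that carried floxed alleles, ate ad libitum and had spent 2 weeks on a cycle of 12 h light and 12 h dark, followed by 24 h without light. One liver gave 1 library, with 2 libraries per genotype at each of 24 circadian times (CT), every 2 h over 48 h, and so 48 libraries per genotype.

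Corticosterone, the glucocorticoid of mice, peaks at the start of the active night, enters cells and binds the receptor encoded by Nr3c1. The bound receptor leaves its chaperones, moves to the nucleus and binds palindromic DNA elements beside its target genes. In liver these targets serve amino acid breakdown, glucose production, lipid handling and metal storage, and some of them, such as Fkbp5, restrain the receptor in turn. RBBP5 is a core component shared by the MLL and SET1 histone methyltransferases, which mark histone H3 at lysine 4.

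Values are FPKM (fragments per kilobase of gene, relative to library depth). Differences are given on the scale log2(FPKM + 1), as LKO minus Flox, with p-values from limma adjusted by Benjamini-Hochberg over all 9901 tested entries at a threshold of 0.05. A window is a block of 3 adjacent times, so that each genotype has 6 libraries in it and 8 windows cover the series. The targeted gene, Rbbp5, spanned 1.61 to 4.23 FPKM across LKO libraries and 1.55 to 4.32 FPKM across Flox libraries, so the ranges overlapped. It was lower in LKO over all times, at 2.46 ± 0.774 FPKM against 3.27 ± 0.586 FPKM in Flox (SD, n = 48 each; log2 difference -0.32, adjusted p = 2.43e-07), and at CT0 to CT40 it averaged 2.27 ± 0.611 FPKM in LKO and 3.35 ± 0.527 FPKM in Flox (SD, n = 42 each). The sources used here do not name the floxed exons. In the 6 libraries labelled LKO at CT42 to CT46 Rbbp5 averaged 3.79 ± 0.399 FPKM, against 2.71 ± 0.718 FPKM in Flox (SD, n = 6 each), which goes against the label. The same 6 libraries stood apart in cell type markers: the sum of 15 macrophage and monocyte genes was 6164 to 12390 FPKM in them, 48.5 to 323 FPKM in LKO at CT0 to CT40, 55.9 to 142 FPKM in Flox at CT42 to CT46 and 44.2 to 164 FPKM in Flox at CT0 to CT40. Hepatocyte markers (11 genes) summed to 19338 to 31499 FPKM in the 6 libraries and 26447 to 44975 FPKM in Flox at the same times, so hepatocyte RNA was present in all of them. Results that rest on these libraries are given with and without them. In whole liver, fewer cells of a type and less RNA per cell cannot be told apart.

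Nr3c1, the receptor itself (ENSMUSG00000024431.15, chromosome 18), was lower in LKO from CT0 to CT16 and higher at CT42 to CT46. At CT0 to CT4 the lowest, median and highest libraries had 2.16, 3.56 and 8.02 FPKM in LKO, against 9.31, 9.81 and 10.6 FPKM in Flox. No LKO library reached the lowest Flox library there, and the log2 difference was -1.08 (SE 0.20, adjusted p = 0.000122, limma). At CT6 to CT10 LKO had 3.39, 3.99 and 11.2 FPKM and Flox 8.51, 10.1 and 11.9 FPKM, with overlap through a single LKO library, the one of CT6 with letter A. The differences were -0.95 (adjusted p = 0.000327) at CT6 to CT10 and -0.64 (adjusted p = 0.00892) at CT12 to CT16. In the 4 windows from CT18 to CT40 they lay between -0.34 and 0.25, with adjusted p from 0.176 to 0.904, though at CT36 to CT40 the difference passed with median-ratio scaling (-0.53, adjusted p = 0.00973) and with quantile normalization (-0.55, adjusted p = 0.00669). Leaving out all libraries of 1 letter ended the 3 early calls: without letter A the difference at CT0 to CT4 was -0.65 (adjusted p = 0.183), and without letter B it was -0.51 (adjusted p = 0.652) at CT6 to CT10 and -0.41 (adjusted p = 0.343) at CT12 to CT16. At CT42 to CT46 the libraries labelled LKO had 8.83, 10.6 and 11.8 FPKM and Flox 3.06, 4.46 and 6.49 FPKM, a difference of 1.08 (SE 0.20, adjusted p = 1.84e-06) with no overlap. The median difference of all 9901 entries in this window was 0.49, and the value for Nr3c1 was 0.50 with median-ratio scaling (adjusted p = 0.0071) and 0.34 with quantile normalization (adjusted p = 0.0669). The macrophage and monocyte markers that are high in these 6 libraries moved with this and with the other differences at CT42 to CT46, and their part was not tested.

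Over all times Nr3c1 averaged 6.15 ± 2.53 FPKM in LKO and 7.34 ± 2.44 FPKM in Flox (SD, n = 48 each), a log2 difference of -0.24 (SE 0.10, adjusted p = 0.0323). It was higher in LKO at 8 of the 24 times. Leaving out the LKO library of CT0 with letter A or that of CT6 with letter B ended this call (adjusted p = 0.0537 and 0.0506), while leaving out the 6 libraries labelled LKO at CT42 to CT46 gave -0.43 (adjusted p = 5.42e-05). Rn45s, the ribosomal RNA precursor, averaged 4500 ± 5091 FPKM in LKO and 1407 ± 475 FPKM in Flox at CT0 to CT22 (SD, n = 24 each). Within LKO the library of a pair with more Rn45s had less Nr3c1 (Pearson r = -0.82 over 24 pairs, permutation adjusted p = 0.00016 over 16 relations, the smallest that 100000 permutations can give). Spearman's rho was -0.76 (adjusted p = 0.00016), and r without the 2 pairs of most extreme Rn45s difference was -0.65. In Flox the same relation did not pass (r = -0.50, adjusted p = 0.0655). Late in the series, at CT42 to CT46, Rn45s spanned 1658 to 4644 FPKM in LKO libraries and 1259 to 17769 FPKM in Flox libraries. The part of Rn45s in the Nr3c1 differences was not tested, nor was how many other entries moved with Rn45s within pairs.

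**Figure D1:**
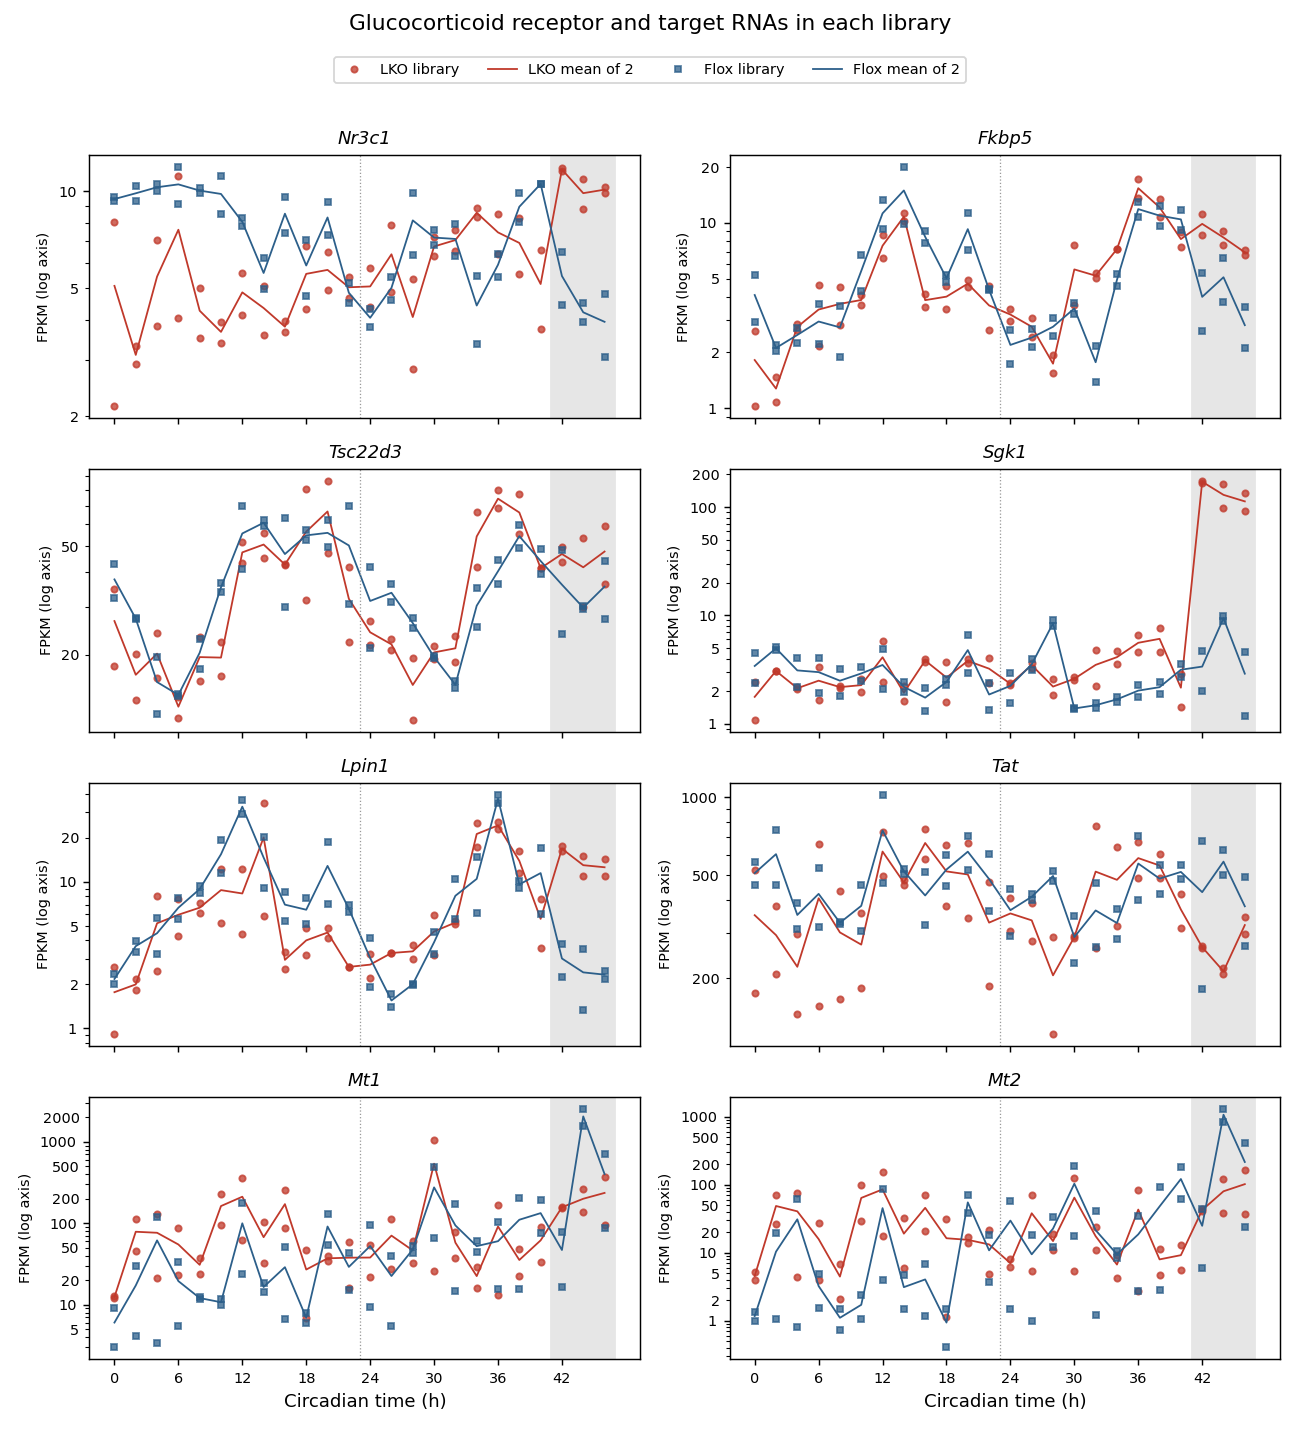
FPKM (log axis) of the 8 genes against circadian time, with 1 point per library (LKO red circles, Flox blue squares) and lines through the mean of the 2 libraries of a time. The dotted line separates the days and the shaded times are CT42 to CT46, where Sgk1 in the libraries labelled LKO lies between 91.2 and 174 FPKM and Mt1 in Flox reaches 2559 FPKM.

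**Figure D2:**
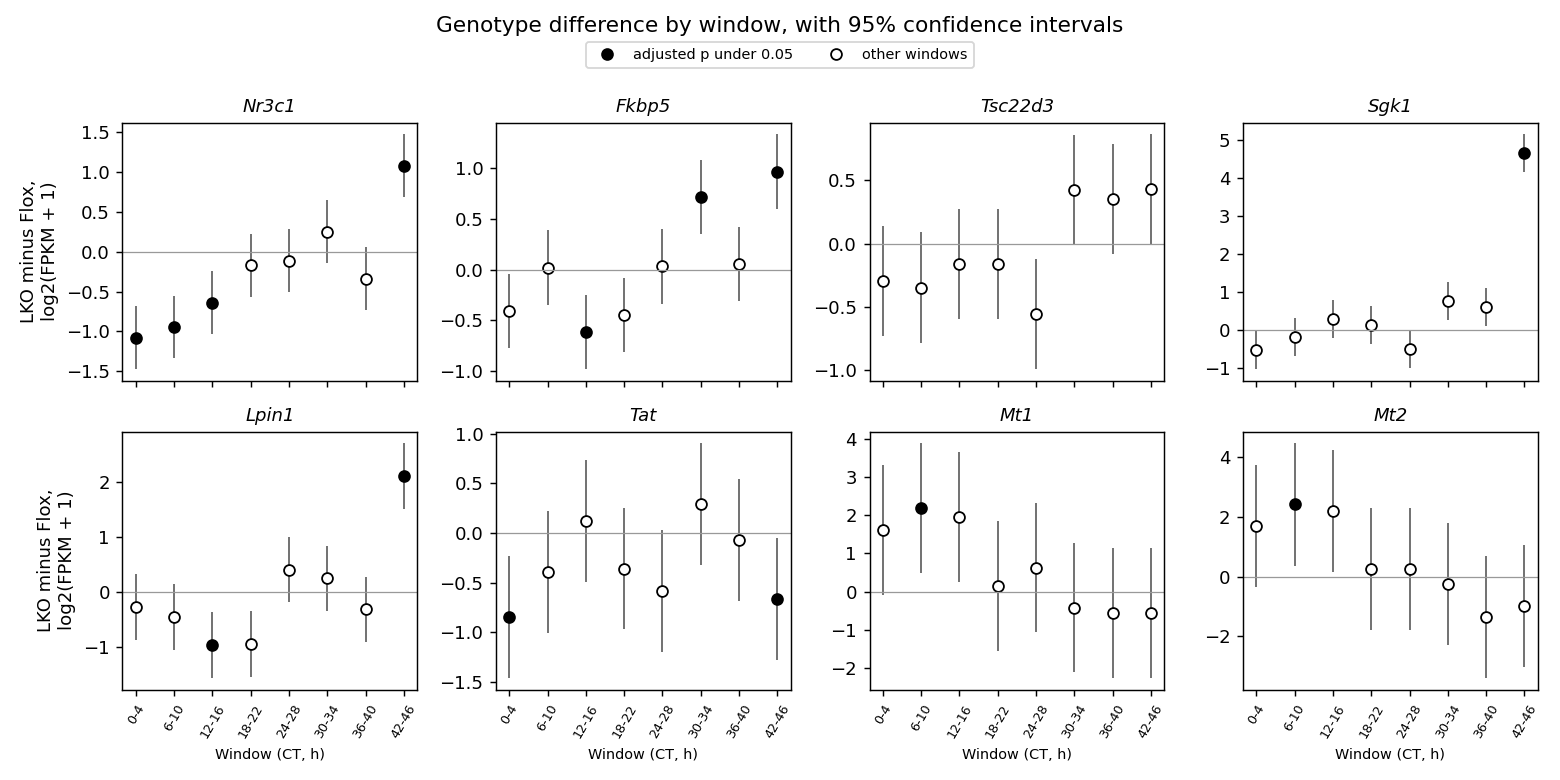
Genotype difference of each gene in 8 windows of 3 times, as LKO minus Flox on the scale log2(FPKM + 1), with 6 libraries per genotype and window. The 95% confidence intervals use 1 limma error per gene, estimated over all 96 libraries and the same in every window. Filled points passed the threshold, with Nr3c1 at -1.08 in the earliest window and 1.08 in the latest.

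Across the 64 combinations of gene and window, 7 differences were higher in LKO (Nr3c1, Fkbp5, Sgk1 and Lpin1 at CT42 to CT46, Fkbp5 at CT30 to CT34, and Mt1 and Mt2 at CT6 to CT10) and 7 were lower. From the earliest window to the latest, 0, 2, 0, 0, 0, 1, 0 and 4 of the 8 genes were higher, against 10.9%, 17%, 18.3%, 0.535%, 1.53%, 5%, 32% and 59.1% of all tested entries. In the same order 2, 1, 3, 0, 0, 0, 0 and 1 were lower, against 41.6%, 31%, 21%, 0.232%, 0.394%, 0.727%, 5.64% and 10.8%. The median of all entries itself moved, from -0.21 at CT0 to CT4 and -0.10 at CT6 to CT10 to 0.18 at CT36 to CT40 and 0.49 in the last window, and the median of the 8 genes was -0.35, -0.26, -0.19 and 0.70 in those windows.

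Over all times 1 of the 8 was higher (Sgk1) and 2 were lower (Nr3c1 and Tat), beside 39.4% higher and 19.1% lower among all entries. Without the 6 libraries labelled LKO at CT42 to CT46, 1 was higher (Mt1) and 2 were lower (Nr3c1 and Lpin1), beside 31.7% and 30% of all entries. Within the first day alone 2 of the 8 were higher in LKO (25.3% of all entries) and 4 lower (44.1%), and within the second day alone 3 were higher (56.1%) and 0 lower (9.09%).

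The size of the difference varied among windows for 5 of the 8 (Nr3c1, Fkbp5, Tsc22d3, Sgk1 and Lpin1), against 80.6% of all entries. With median-ratio scaling Tat (adjusted p = 0.00832), Mt1 (0.0189) and Mt2 (0.0221) passed as well and Tsc22d3 did not, and with quantile normalization Mt2 passed (0.0353) and Tsc22d3 did not. As deposited, these 5 also passed over CT0 to CT40 alone, with adjusted p from 0.000461 for Fkbp5 to 0.0307 for Tsc22d3, against 60.9% of all entries. Between the days the difference changed for 7 of the 8, all except Tat, against 72.1% of all entries. From the first day to the second it moved upward by 0.93 for Nr3c1, 0.81 for Fkbp5, 0.40 for Tsc22d3, 1.45 for Sgk1 and 1.27 for Lpin1, and it fell by 1.70 for Mt1 and 2.23 for Mt2. Without the 6 late libraries 5 of the 8 changed between the days, against 57.4% of all entries. These were Nr3c1 (0.64), Fkbp5 (0.63), Lpin1 (0.77), Mt1 (-1.59) and Mt2 (-2.09), while Sgk1 gave 0.36 (adjusted p = 0.0842) and Tsc22d3 0.32 (adjusted p = 0.10).

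Fkbp5 (ENSMUSG00000024222.17, mm10 chromosome 17, 28399094 to 28517527, minus strand) encodes the co-chaperone FKBP51, which holds the receptor in a state of low hormone affinity. It cycled strongly in both genotypes, and the cycles ran nearly together. The time-point mean was highest at CT14 (10.79 FPKM in LKO and 14.96 FPKM in Flox) and again at CT36 (15.4 FPKM in LKO and 11.9 FPKM in Flox). On the first day the highest mean was 8.45 times the lowest in LKO and 7.07 times in Flox. Over all times Fkbp5 averaged 5.74 ± 3.66 FPKM in LKO and 5.66 ± 4.03 FPKM in Flox (SD, n = 48 each), which differed by 0.04 (adjusted p = 0.713), a sign that turned under median-ratio scaling (-0.03) and quantile normalization (-0.07). At CT12 to CT16, around the first peak, LKO libraries had 3.52, 7.53 and 11.3 FPKM (lowest, median and highest) and Flox libraries 7.75, 9.60 and 19.99 FPKM, a difference of -0.61 (SE 0.18, adjusted p = 0.00751) with overlapping ranges. At CT30 to CT34, before the second peak, LKO had 3.59, 6.28 and 7.63 FPKM and Flox 1.38, 3.45 and 5.31 FPKM, a difference of 0.72 (adjusted p = 0.0110) that lost its call without the Flox library of CT32 with letter B (adjusted p = 0.0506) and after quantile normalization (0.54, adjusted p = 0.0771). At CT42 to CT46 the libraries labelled LKO had 6.71, 8.10 and 11.1 FPKM and Flox 2.12, 3.62 and 6.43 FPKM, with no overlap. Taken from the values as deposited that difference was 0.97 (adjusted p = 4.08e-06). Median-ratio scaling gave 0.40 (adjusted p = 0.0434) and quantile normalization gave 0.19 (adjusted p = 0.357).
Of the RefSeq start sites in the table used here, 1 belongs to Fkbp5, inside the annotated gene. Its 250 bases before the start (GRCm38.p6, chr17:28486150-28486399, minus strand, printed 5′ to 3′ along the gene) are shown because the window holds an E-box, the element of the clock's activators, in capitals. No window before Lpin1 or Tsc22d3, which also cycled in both genotypes, holds an E-box, and 1 before Sgk1 does. The part of the E-box in the rhythm was not tested. The letters CACGTG occur in 6.02% of 32851 windows of the same length and place.
Fkbp5: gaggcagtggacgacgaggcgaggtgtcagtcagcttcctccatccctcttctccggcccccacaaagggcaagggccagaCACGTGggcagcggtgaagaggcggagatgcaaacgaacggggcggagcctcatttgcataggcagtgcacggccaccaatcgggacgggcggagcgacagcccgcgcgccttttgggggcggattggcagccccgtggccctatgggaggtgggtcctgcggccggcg

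Tsc22d3 (ENSMUSG00000031431.13, mm10 chromosome X, 140539528 to 140600659, minus strand) encodes GILZ, a leucine zipper protein through which glucocorticoids restrain inflammation. It averaged 37.0 ± 20.3 FPKM in LKO and 36.3 ± 15.9 FPKM in Flox (SD, n = 48 each), with a log2 difference of -0.04 (SE 0.08, 95% interval -0.21 to 0.13, adjusted p = 0.716). No window was called. The differences nonetheless varied among windows (F = 3.12, adjusted p = 0.00914), from -0.55 at CT24 to CT28 to 0.43 at CT42 to CT46, and the variation did not pass after median-ratio scaling (adjusted p = 0.116) or quantile normalization (0.0724). The time-point mean peaked at CT20 and CT36 in LKO (66.9 and 74.6 FPKM) and at CT14 and CT38 in Flox (60.8 and 54.4 FPKM). Troughs lay at CT6 and CT28 in LKO (12.9 and 15.5 FPKM) and at CT6 and CT32 in Flox (14.2 and 15.5 FPKM).

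Sgk1 (ENSMUSG00000019970.15, mm10 chromosome 10, 21882184 to 21999903, plus strand) encodes the serum and glucocorticoid regulated kinase, which controls ion channels and transporters. The 6 libraries labelled LKO at CT42 to CT46 had 174, 168, 161, 97.5, 91.2 and 134 FPKM, against 4.72, 2.02, 8.89, 9.97, 1.17 and 4.63 FPKM in Flox at the same times. Every one of the 6 exceeded every other library, since LKO at CT0 to CT40 reached at most 7.61 FPKM and Flox at most 9.97 FPKM. The log2 difference in this window was 4.66 (SE 0.25, adjusted p = 5.68e-27), and both median-ratio scaling (4.06) and quantile normalization (4.398) left it nearly as large. Over all times the difference was 0.66 (SE 0.20, adjusted p = 0.00384), and without the 6 libraries it was 0.08 (adjusted p = 0.486). That average holds windows of both signs. CT30 to CT34 (0.77) and CT36 to CT40 (0.60) passed without the 6 libraries (adjusted p = 0.0376 and 0.0394, limma). In the full fit they did not (0.0526 and 0.0515). CT0 to CT4 (-0.53, adjusted p = 0.0722 in the full fit) passed without CT42 to CT46 of both genotypes (0.0461). At CT0 to CT40 Sgk1 averaged 3.12 ± 1.38 FPKM in LKO and 2.98 ± 1.73 FPKM in Flox (SD, n = 42 each).
Macrophage and monocyte markers moved with Sgk1: their sum had a median of 10465 FPKM in the 6 libraries, 114 FPKM in LKO at CT0 to CT40 and 99.8 FPKM in Flox at CT42 to CT46, and 0 of the 15 was at 0 in every library. Over all times 14 of the 15 rose in LKO and 0 fell, beside 39.4% and 19.1% of all entries. Over CT0 to CT40 alone 12 rose and 1 fell, beside 32.3% and 30.6%. Markers of Kupffer cells, the resident macrophages of liver (9 genes), summed to 108 to 289 FPKM in the 6 libraries and 105 to 220 FPKM in Flox at the same times. Neutrophil markers (5 genes) summed to 57.0 to 129 FPKM in the 6 libraries and 2.34 to 15.4 FPKM in Flox. Cholangiocyte markers (5 genes) summed to 239 to 938 FPKM in the 6 libraries and 18.9 to 33.5 FPKM in Flox. In LKO at CT0 to CT40 the Kupffer, neutrophil and cholangiocyte sums were 67.0 to 383, 0.458 to 42.4 and 25.7 to 500 FPKM. The cholangiocyte median was 71.3 FPKM in LKO and 23.8 FPKM in Flox at those times. The part of these cells in the Sgk1 values was not tested.
RefSeq lists 6 starts for Sgk1 in the table used here, and 1 of the windows before them (GRCm38.p6, chr10:21993640-21993889, plus strand) is shown because it holds the full palindrome to which the receptor binds, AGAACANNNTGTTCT, in capitals. The palindrome, which reads the same on both strands except for its middle bases, lies 189 to 175 bases before the start and contains both of its single AGAACA arms. It occurs in 3 of the 32851 windows (0.00913%), while a single AGAACA on either strand occurs in 16.1%. An E-box at 246 to 241 bases before the start overlaps another single arm. A match is a run of letters and says nothing here of binding.
Sgk1: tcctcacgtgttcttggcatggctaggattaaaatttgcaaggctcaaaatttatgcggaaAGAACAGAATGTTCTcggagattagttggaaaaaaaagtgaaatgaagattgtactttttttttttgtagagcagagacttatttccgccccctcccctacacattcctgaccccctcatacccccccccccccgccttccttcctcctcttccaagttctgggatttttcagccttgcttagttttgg

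**Figure D3:**
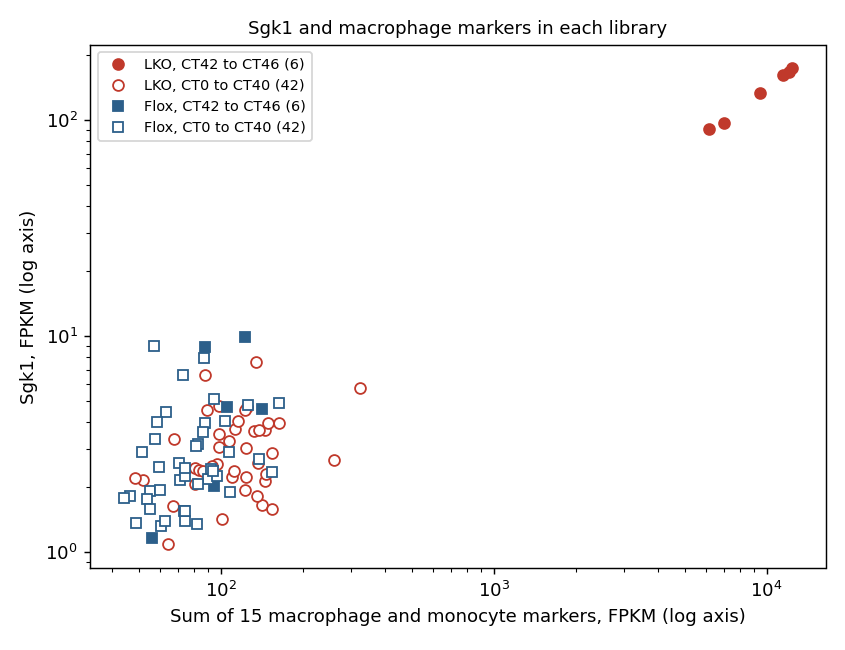
Sgk1 against the summed FPKM of 15 macrophage and monocyte markers in each of the 96 libraries (both axes logarithmic; LKO red circles, Flox blue squares, filled at CT42 to CT46). The 6 libraries labelled LKO at CT42 to CT46 lie apart from the rest on both axes, with marker sums of at least 6164 FPKM, and no other library exceeds 323 FPKM.

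Lpin1 (ENSMUSG00000020593.15, mm10 chromosome 12, 16535669 to 16610966, minus strand) encodes lipin 1, a phosphatidate phosphatase of triglyceride synthesis and a nuclear coactivator. Around the first peak, at CT12 to CT16, LKO libraries had 2.54, 5.12 and 34.4 FPKM (lowest, median and highest) and Flox libraries 5.40, 14.7 and 36.4 FPKM. The ranges overlapped. The LKO range came near the top of the Flox range through the LKO library of CT14 with letter A, at 34.4 FPKM beside 5.83 FPKM in the other library of that time. The LKO library of CT12 with letter A, at 12.3 FPKM, also lay within the Flox range. The log2 difference was -0.96 (SE 0.30, adjusted p = 0.00923), and it was -0.68 (adjusted p = 0.0731) without the LKO library of CT12 with letter B and -0.071 (adjusted p = 0.946) without all libraries of letter B. At CT42 to CT46 the libraries labelled LKO had 10.9, 14.7 and 17.5 FPKM and Flox 1.33, 2.36 and 3.77 FPKM, with no overlap. This difference of 2.10 (SE 0.30, adjusted p = 4.68e-09) stood at 1.53 under median-ratio scaling (adjusted p = 4.29e-06) and 1.34 under quantile normalization (adjusted p = 3.14e-05). Lpin1 over all times differed by -0.03 (adjusted p = 0.896), and without the 6 libraries by -0.33 (adjusted p = 0.0206). The first day alone gave -0.66 (adjusted p = 0.000634) and the second day alone 0.61 (adjusted p = 0.00613). The second day holds the 6 late libraries, and its other windows gave 0.40, 0.25 and -0.32, none of which passed (adjusted p from 0.422 to 0.639). The same macrophage markers moved with the late difference, and their part in it was not tested.

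Tat (ENSMUSG00000001670.13, mm10 chromosome 8, 109990437 to 109999803, plus strand) encodes tyrosine aminotransferase, the enzyme that starts tyrosine breakdown and a classical glucocorticoid target of liver. It averaged 392.1 ± 179 FPKM in LKO and 462 ± 154 FPKM in Flox (SD, n = 48 each), a log2 difference of -0.31 (SE 0.11, adjusted p = 0.0139), and was higher in LKO at 6 of the 24 times. The adjusted p was 0.0546 without the 6 libraries labelled LKO at CT42 to CT46 (-0.26), and 0.108 after quantile normalization (-0.21). At CT0 to CT4 LKO libraries had 145, 252 and 525 FPKM (lowest, median and highest) and Flox libraries 310, 458 and 748 FPKM. The difference there was -0.85 (SE 0.31, adjusted p = 0.0178), with overlapping ranges. Its adjusted p was 0.0948, 0.0653 and 0.0585 without the LKO libraries of CT0 A, CT2 B or CT4 A and 0.0588 without the Flox library of CT2 B. At CT42 to CT46 the libraries labelled LKO had 207, 264 and 346 FPKM and Flox 182, 496 and 678 FPKM, a difference of -0.66 (adjusted p = 0.0498) that lost its call in 62 of the 96 fits that leave out 1 library each. Within LKO the library of a pair with more Rn45s had less Tat (r = -0.66, permutation adjusted p = 0.0032; rho = -0.61, adjusted p = 0.0143; r = -0.56 without the 2 extreme pairs), and in Flox r was -0.25 (adjusted p = 0.369). Hepatocyte markers moved with the late Tat difference, with a median sum of 21781 FPKM in the 6 libraries labelled LKO and 41013 FPKM in Flox at CT42 to CT46. Over all times 8 of the 11 were lower in LKO, beside 19.1% of all entries. Over CT0 to CT40 alone 8 were lower, beside 30.6%, and 1 was higher, beside 32.3%. The part of Rn45s and of these markers in the Tat differences was not tested.

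Mt1 and Mt2 encode the metallothioneins, small cysteine-rich proteins that bind zinc and copper and are induced by metals, glucocorticoids and inflammation. They lie side by side on chromosome 8 (mm10, Mt1 ENSMUSG00000031765.8 at 94179082 to 94180327 and Mt2 ENSMUSG00000031762.7 at 94172664 to 94173568, plus strand). They are related copies of 1 family, so the authors' counting could have shared some reads between them, and Mt2 overlaps the antisense gene model Gm45774. The kit marks strand, per the labels, but the sources used here do not say whether counting used it. Both varied more between libraries of 1 time than any other of the 8 genes. The median fold between the 2 libraries of a time was 2.57 in LKO and 4.91 in Flox for Mt1 and 3.15 in LKO and 3.82 in Flox for Mt2, against 1.18 in LKO and 1.29 in Flox for Fkbp5. In Flox at CT44 Mt1 had 2559 and 1554 FPKM and Mt2 1317 and 829.1 FPKM, while the libraries labelled LKO at CT44 had 138 and 263 FPKM of Mt1 and 38.8 and 122 FPKM of Mt2. These Flox libraries were the highest of the series for both genes, and the next was the LKO library of CT30 with letter B for Mt1 (1054 FPKM) and a Flox library of CT46 for Mt2 (409 FPKM).
At CT6 to CT10 Mt1 had 22.99, 62.3 and 232 FPKM in LKO (lowest, median and highest), against 5.44, 11.7 and 33.5 FPKM in Flox. The log2 difference was 2.18 (SE 0.85, adjusted p = 0.0299), with overlapping ranges. For Mt2 the same window gave 2.08, 17.4 and 98.5 FPKM in LKO, against 0.731, 1.52 and 4.93 FPKM in Flox, a difference of 2.42 (SE 1.03, adjusted p = 0.0455). These calls were lost in 7 (Mt1) and 8 (Mt2) of the 96 fits that leave out 1 library each, with adjusted p up to 0.0882 for Mt1 without the LKO library of CT10 A and 0.131 for Mt2 without the same library. On the first day alone the differences were 1.47 for Mt1 (adjusted p = 0.000937) and 1.64 for Mt2 (adjusted p = 0.00212). On the second day alone they were -0.23 (adjusted p = 0.665) and -0.58 (adjusted p = 0.332). Over all times Mt1 averaged 105 ± 164 FPKM in LKO and 156 ± 432 FPKM in Flox and Mt2 33.7 ± 41.2 FPKM in LKO and 77.8 ± 226 FPKM in Flox (SD, n = 48 each). On the log2 scale the differences were 0.62 for Mt1 (adjusted p = 0.0729) and 0.53 for Mt2 (adjusted p = 0.220), opposite in sign to the differences of the plain means.
The sequences before both starts (GRCm38.p6, plus strand) are shown because the genes moved together library by library, as given below for paired libraries. Capitals mark the core of the metal response element, TGCACNC or TGCGCNC on either strand, which occurs in 21.4% of all windows. The Mt2 window holds 3 matches, 1 of them on the minus strand, and the Mt1 window holds 1.
Mt1, chr8:94178839-94179081 (243 bases, up to the annotated exon): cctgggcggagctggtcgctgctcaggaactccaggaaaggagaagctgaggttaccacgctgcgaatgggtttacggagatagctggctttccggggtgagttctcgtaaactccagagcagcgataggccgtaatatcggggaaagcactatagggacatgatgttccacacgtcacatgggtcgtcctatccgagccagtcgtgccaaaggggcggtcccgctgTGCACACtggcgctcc
Mt2, chr8:94172368-94172617 (250 bases): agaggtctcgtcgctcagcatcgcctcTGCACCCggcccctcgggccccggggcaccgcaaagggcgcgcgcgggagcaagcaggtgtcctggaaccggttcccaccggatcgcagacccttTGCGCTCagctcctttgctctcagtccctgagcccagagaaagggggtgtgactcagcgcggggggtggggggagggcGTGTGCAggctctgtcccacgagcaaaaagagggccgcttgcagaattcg
The receptor's full palindrome was not among the letters of these windows, nor of those before the starts of Fkbp5, Lpin1, Tat and Tsc22d3.

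The 24 h rhythm was fitted per genotype with a 24 h wave and its 12 h harmonic, and the amplitude is the rise of the fitted 24 h curve above its mean. A 24 h rhythm passed for 5 of the 8 genes in LKO and 3 in Flox, against 49.5% of all entries in LKO and 27.3% in Flox. Without all libraries of letter A 3 passed in LKO. Lpin1 (0.61, adjusted p = 0.0570, limma) and Tat (0.40, adjusted p = 0.155) lost their LKO call there. Fkbp5 had an amplitude of 0.81 ± 0.10 in LKO and 0.89 ± 0.10 in Flox (± SE), with peaks at CT14.4 in LKO and CT14.8 in Flox. Tsc22d3 peaked later, at CT16.2 in LKO (0.86 ± 0.09) and CT17.1 in Flox (0.66 ± 0.09). Lpin1 peaked earliest, at CT13.1 in LKO (0.83 ± 0.15) and CT12.4 in Flox (1.18 ± 0.15). These amplitudes exceed the median of the entries called rhythmic, which was 0.27 in LKO and 0.25 in Flox. The peaks fall in the subjective night, from CT12.4 for Lpin1 in Flox to CT17.1 for Tsc22d3 in Flox. The data used here hold no corticosterone values, so a relation of these peaks to the hormone was not tested. For none of the 3 did the rhythm differ between genotypes at the threshold (adjusted p = 0.715 for Fkbp5, 0.209 for Tsc22d3 and 0.288 for Lpin1).

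Tat passed in LKO (0.47 ± 0.11, CT14.3, adjusted p = 0.00129) and not in Flox (0.21 ± 0.11, adjusted p = 0.283), but the difference between genotypes did not pass (adjusted p = 0.127). The receptor gene Nr3c1 did not pass in LKO (0.13 ± 0.09, adjusted p = 0.423) or Flox (0.23 ± 0.09, adjusted p = 0.0987). In Flox it passed on each day alone, at 0.33 with a peak at CT5.9 (adjusted p = 0.0436, limma) and then 0.29 with a peak at CT11.3 (adjusted p = 0.0335). In LKO it passed on the second day alone (0.26, CT17.2, adjusted p = 0.0309), which holds the libraries labelled LKO at CT42 to CT46. Mt1 and Mt2 did not pass in LKO (0.24 ± 0.37 and 0.24 ± 0.43) or Flox (0.63 ± 0.37 and 1.03 ± 0.43), with wide errors. Of the 8, Sgk1 differed between genotypes (adjusted p = 0.0391, against 19.9% of all entries), with an amplitude of 1.18 ± 0.23 in LKO and 0.30 ± 0.23 in Flox. Without the 6 libraries labelled LKO at CT42 to CT46 its LKO amplitude was 0.19 (adjusted p = 0.345), and none of the 8 differed between genotypes (0.263% of all entries did; unadjusted p = 0.0109 for Sgk1, 0.0498 for Tat and at least 0.0541 for the other 6, limma). Without those libraries 4 of the 8 (Fkbp5, Tsc22d3, Lpin1 and Tat) had a rhythm in LKO, against 26.7% of all entries. On the second day alone, which holds those libraries, 4 differed between genotypes (Nr3c1, Tsc22d3, Sgk1 and Lpin1), against 48.6% of all entries. A 12 h rhythm passed for Sgk1 in LKO (0.81 ± 0.23, adjusted p = 0.0364) and for Tsc22d3 in Flox (0.34 ± 0.09, adjusted p = 0.0463), against 9.42% of all entries in LKO and 1.78% in Flox. The Sgk1 value was 0.13 without the 6 libraries (adjusted p = 0.950). No entry differed between genotypes in its 12 h terms at the threshold (0 of 9901, 0%; unadjusted p = 0.0318 for Sgk1).

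**Figure D4:**
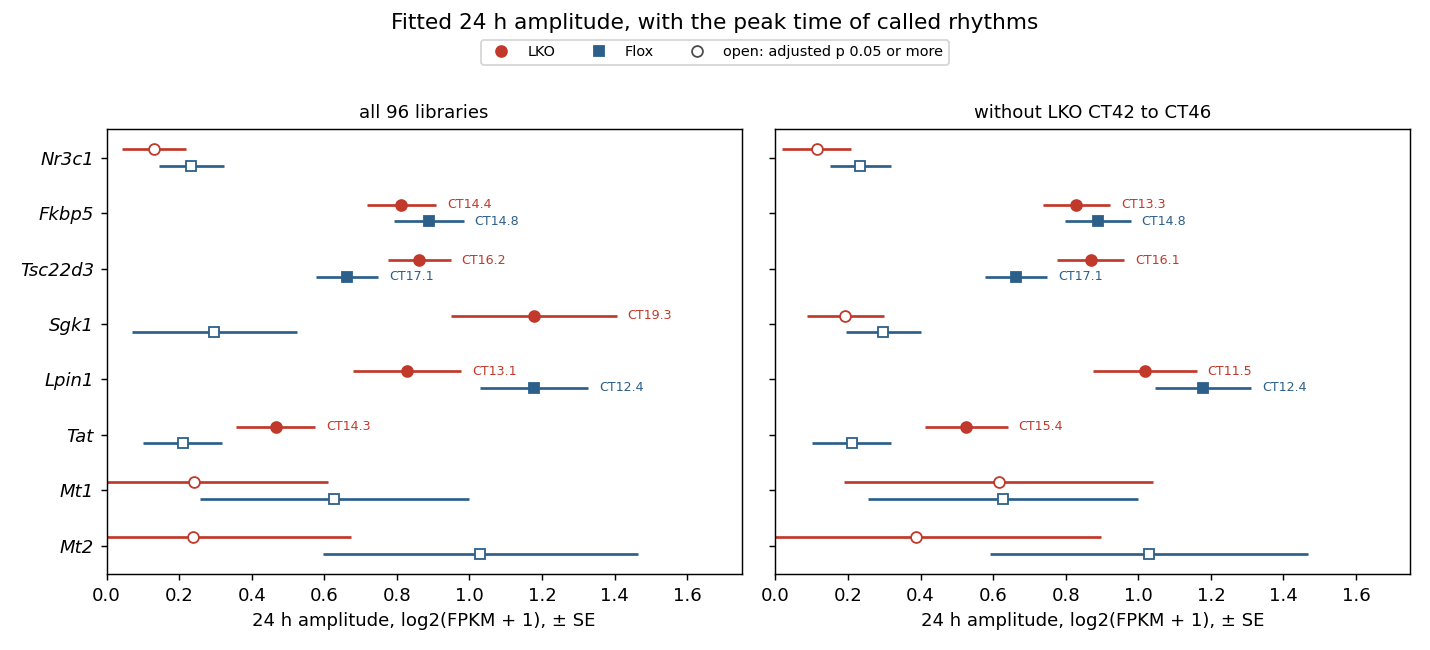
Amplitude of the fitted 24 h rhythm on the scale log2(FPKM + 1) with its SE, for LKO (red circles) and Flox (blue squares), from all 96 libraries at left and without the 6 libraries labelled LKO at CT42 to CT46 at right. Filled symbols passed the threshold and carry their peak time, error bars end at 0 where they would cross it, and the Sgk1 amplitude in LKO is 1.18 at left and 0.19 at right.

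Libraries of the same genotype and time come from different mice, so genes can be compared in how they differ within each of the 24 pairs. With 1 library per liver, differences between livers and between library preparations cannot be told apart. The first letter minus the second was taken on the log2 scale, and 28 gene pairs were compared per genotype by permutation with adjustment over the 28. Mt1 and Mt2 moved together in LKO (r = 0.96, rho = 0.97) and Flox (r = 0.96, rho = 0.96), with adjusted p = 0.00028 in both, the smallest possible, and r of 0.97 in LKO and 0.96 in Flox without the 2 most extreme pairs. Sgk1 and Tat did so in LKO (r = 0.61, adjusted p = 0.0119; rho = 0.61, adjusted p = 0.0125) and Flox (r = 0.72, adjusted p = 0.00168; rho = 0.73, adjusted p = 0.00238). Without the 2 most extreme pairs r was 0.60 in LKO and 0.72 in Flox. Tsc22d3 and Tat gave r = 0.58 in LKO (adjusted p = 0.0170; rho = 0.57, adjusted p = 0.0227) and r = 0.64 in Flox (adjusted p = 0.00663; rho = 0.54, adjusted p = 0.0559), with 0.52 in LKO and 0.59 in Flox without the 2 extreme pairs.
In all, 7 of the 28 pairs passed by r in LKO and 3 in Flox, and the 3 were among the 7. The other 4 in LKO were Nr3c1 with Tat (r = 0.72, rho = 0.64), Nr3c1 with Sgk1 (r = 0.62, rho = 0.66), Nr3c1 with Lpin1 (r = 0.53, rho = 0.51) and Tsc22d3 with Sgk1 (r = 0.51, rho = 0.51), with adjusted p from 0.00112 to 0.0454. In Flox, Tsc22d3 with Sgk1 passed by rho (0.59, adjusted p = 0.0285) and not by r (0.45, adjusted p = 0.0898). Whether these 4 relations differ between genotypes was not tested. For Rn45s the same differences in LKO gave r = -0.82 with Nr3c1 and -0.66 with Tat (permutation adjusted p = 0.00016 and 0.0032). With Lpin1, Sgk1 and Tsc22d3 r was -0.47, -0.46 and -0.42, and with Fkbp5, Mt1 and Mt2 it was -0.27, 0.13 and 0.19. These did not pass. The part of Rn45s in the relations between genes was not tested. Fkbp5 passed with none of the 7 others in either genotype, where r ran from -0.01 to 0.23 in LKO and from 0.23 to 0.46 in Flox.

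**Figure D5:**
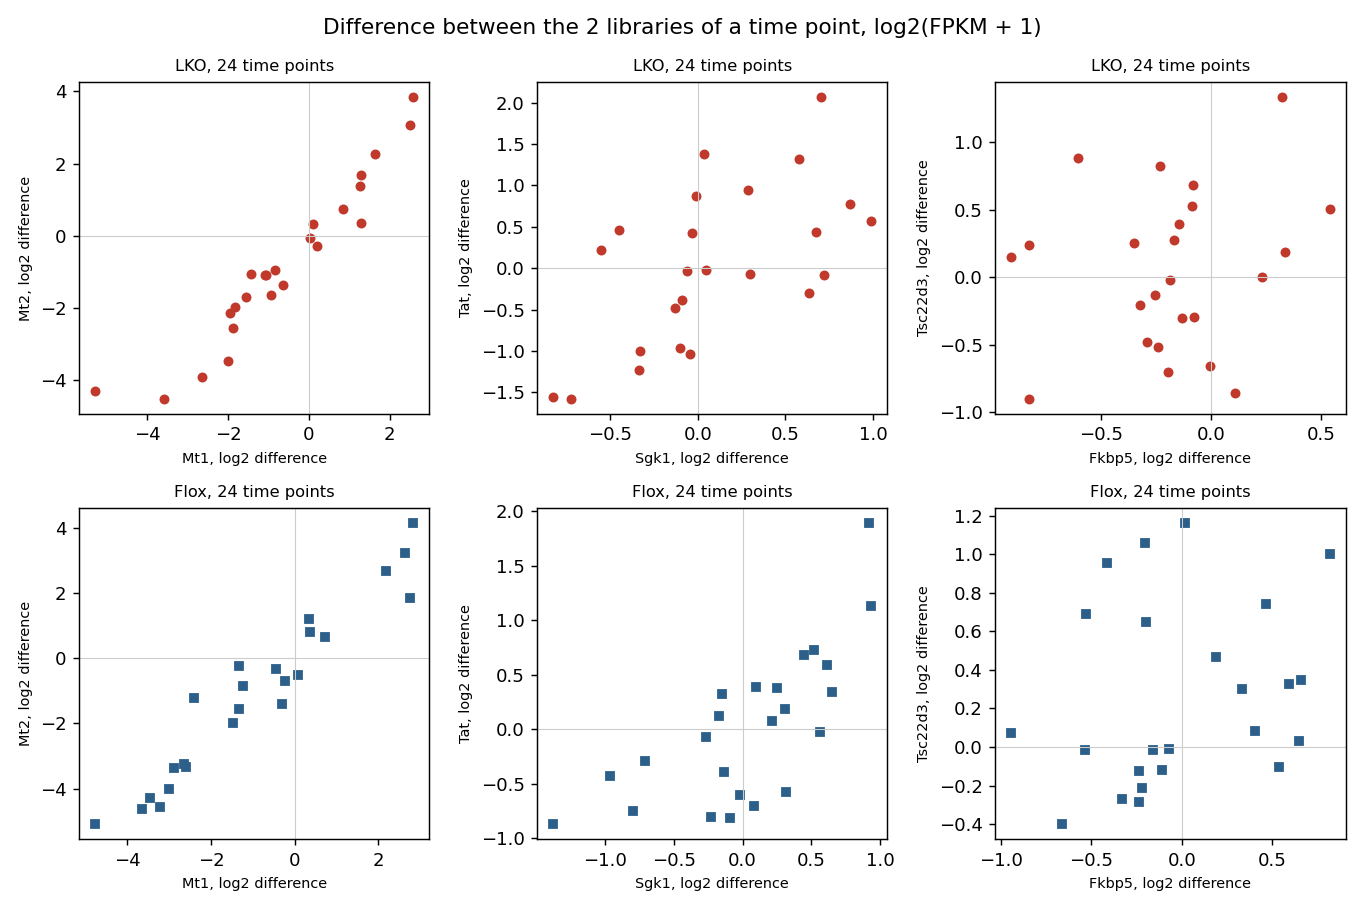
Difference between the 2 libraries of a time point on the log2 scale for 3 gene pairs, in LKO (top, red) and Flox (bottom, blue), with 1 point for each of 24 times. Mt1 and Mt2 fall close to a line in both genotypes (r = 0.96), Sgk1 and Tat are related more loosely (0.61 in LKO and 0.72 in Flox), and Fkbp5 and Tsc22d3 did not pass (0.18 in LKO and 0.23 in Flox).

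The entries most like each gene were those with the highest correlation over the 24 Flox time means, given here as a description beside the same correlation over the 21 LKO times of CT0 to CT40. Nr3c1 was followed by Mia2, Tbl1x and Fam8a1, with r of 0.91, 0.92 and 0.93 in LKO and 0.98 for each in Flox. Fkbp5 was most like St3gal5, a sialyltransferase of ganglioside synthesis (0.97 in LKO, 0.92 in Flox), then Rrm2, a ribonucleotide reductase subunit (0.78 in LKO, 0.88 in Flox), and Homer2 (0.89 in LKO, 0.84 in Flox). The entries nearest to Lpin1 were the folate transporter Slc19a1 (0.82 in LKO, 0.89 in Flox), the clock gene Per1 (0.80 in LKO, 0.88 in Flox) and the glycolytic regulator Pfkfb3 (0.83 in LKO, 0.88 in Flox). Tsc22d3 came with Ankrd9 (0.77 in LKO, 0.83 in Flox), Pfkfb1 (0.59 in LKO, 0.83 in Flox) and Nop2 (0.60 in LKO, 0.82 in Flox). Tat came with Rbm4 (0.68 in LKO, 0.76 in Flox), Slc25a51 (0.58 in LKO, 0.71 in Flox) and Atp1b3 (0.62 in LKO, 0.71 in Flox). Mt1 and Mt2 were nearest to each other (0.88 in LKO, 0.97 in Flox). The serum amyloid Saa3 came next, with 0.11 in LKO and 0.86 in Flox for Mt1 and -0.03 in LKO and 0.89 in Flox for Mt2. After it came the heme carrier Hpx for Mt1 (0.71 in LKO, 0.82 in Flox) and Tff3 for Mt2 (0.37 in LKO, 0.86 in Flox). For Sgk1 the entries were Bbs10, Camk2n2 and Hcar2, with 0.12, 0.51 and 0.28 in LKO and 0.82, 0.81 and 0.80 in Flox.

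Other genes that glucocorticoids induce in liver were tested for 26 of 30 listed, of which 10 rose (39.4% of all entries) and 7 fell (19.1% of all entries) in LKO over all times, with a median log2 difference of -0.07 beside 0.07 for all entries. Over CT0 to CT40 alone 7 rose and 9 fell, beside 32.3% and 30.6% of all entries. Sult1e1, the estrogen sulfotransferase, was nearly silent in Flox, with 6.47 ± 9.37 FPKM in LKO and 0.125 ± 0.174 FPKM in Flox (SD, n = 48 each; 1.77, SE 0.22, adjusted p = 2.77e-10), and was higher in LKO at 23 of 24 times. Dusp1, a phosphatase that shuts off MAP kinases, rose to 22.8 ± 26.7 FPKM in LKO, against 8.38 ± 3.25 FPKM in Flox (0.84, SE 0.15), and Cdkn1a, a cell cycle inhibitor, rose by 1.44 (SE 0.20). Without the 6 libraries labelled LKO at CT42 to CT46 the values were 1.68 for Sult1e1, 0.47 for Dusp1 and 1.21 for Cdkn1a, each still past the threshold. Tdo2, the tryptophan dioxygenase of hepatocytes, fell to 164 ± 88.9 FPKM in LKO, against 262 ± 85.2 FPKM in Flox (-0.78, SE 0.14, adjusted p = 2.3e-06). A 24 h rhythm passed for 18 of the 26 in LKO (49.5% of all entries) and 11 in Flox (27.3% of all entries). Per1, a clock gene with a receptor element, peaked at CT13.7 in LKO and CT13.0 in Flox (amplitudes 1.06 ± 0.10 and 0.90 ± 0.10), close to Fkbp5, and Cebpb, a transcription factor of gluconeogenesis, at CT15.6 in LKO and CT13.9 in Flox (0.46 ± 0.09 and 0.55 ± 0.09). Rgs16, a G protein regulator, had a lower amplitude in LKO (0.76 ± 0.15, CT11.1) than in Flox (1.496 ± 0.15, CT10.2), and this rhythm differed between genotypes (adjusted p = 0.0246), though not without those 6 libraries (0.85 in LKO, adjusted p = 0.289).

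Genes that supply hormone to the receptor or work with it gave 4 higher and 4 lower of 23 tested (median 0.02), beside 39.4% and 19.1% of all entries, and 1 higher and 9 lower over CT0 to CT40 alone, beside 32.3% and 30.6%. Hsd11b1, which regenerates active corticosterone in hepatocytes, fell to 239 ± 63.3 FPKM in LKO, against 296 ± 59.0 FPKM in Flox (SD, n = 48 each; -0.35, SE 0.08, adjusted p = 0.000258). Srd5a1, a reductase that inactivates steroids, fell to 33.6 ± 12.6 FPKM in LKO, against 44.7 ± 6.89 FPKM in Flox (-0.50, SE 0.09). The corepressor deacetylase Hdac3 (0.30, SE 0.05) and the coactivator Ncoa3 (0.24, SE 0.06) rose, and without the 6 late libraries Hdac3 gave 0.28 and Ncoa3 0.083 (adjusted p = 0.0948).

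In the list of metal regulation 0 of 11 tested genes rose and 7 fell over all times (median -0.31), beside 39.4% and 19.1% of all entries. Over CT0 to CT40 alone 0 rose and 9 fell, beside 32.3% and 30.6%, while neither metallothionein fell over all times. The copper importer Slc31a1 (-0.44, SE 0.08), the manganese exporter Slc30a10 (-0.38, SE 0.07) and the zinc importers Slc39a8 (-0.42, SE 0.09) and Slc39a14 (-0.31, SE 0.08) were among those that fell. Of 5 tested genes of phosphatidate phosphatases and tyrosine breakdown 0 rose and 3 fell over all times, beside 39.4% and 19.1% of all entries. The 3 were Gstz1 (218 ± 43.9 FPKM in LKO and 278 ± 35.8 FPKM in Flox, -0.37), Hgd (121 ± 38.2 FPKM in LKO and 156 ± 26.7 FPKM in Flox, -0.41) and Hpd (-0.28, and -0.16 without the late libraries), which act after Tat in the pathway, while Lpin2, the hepatic paralog of Lpin1, gave -0.11 (adjusted p = 0.236). Hepatocyte markers moved with these lists, with 8 of 11 lower and 0 higher in LKO over all times. Over CT0 to CT40 alone 8 were lower and 1 was higher, and the part of these markers was not tested. Of 17 core clock genes 16 had a 24 h rhythm in LKO and 16 in Flox, beside 49.5% and 27.3% of all entries. Over all times 4 of the 17 rose and 4 fell, beside 39.4% and 19.1% of all entries. Among those that passed, Hlf gave -0.31, Per2 0.34 and Per3 0.20.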

How the data were processed

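Poly(A) RNA libraries of 96 mouse livers (48 LKO and 48 Flox; total RNA by miRNeasy, Illumina Stranded mRNA kit, per the labels) were analysed from 1 deposited table of FPKM values that the authors made. FastQC, Trimmomatic, HISAT2 and Cufflinks with the mm10 genome are named, without versions, per the submitters' processing notes. No header names the unit, which follows from Cufflinks and the size of the values.

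The table holds no counts, so depth per library is unknown. Steps among low values, found for 4128 of 4560 library pairs, were used to fit a relative depth per library. It was 0.832 to 1.676 in LKO and 0.745 to 1.233 in Flox. For 85.6% of those pairs the log2 ratio of their steps missed the fitted depths by less than 0.03. Whether the values derive from whole reads was not tested. Column sums were 313376 to 452463 FPKM in LKO and 328036 to 498760 FPKM in Flox.

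The 9901 of 13094 entries whose mean over all libraries reached 1 FPKM were tested as log2(FPKM + 1), which understates the change of low genes, with limma 3.58.1 (R 4.3.3; intensity trend, robust moderation, Benjamini-Hochberg over all tested entries, threshold 0.05). The models had a term per time with 1 genotype term, with 8 genotype terms by window, or 24 h and 12 h waves per genotype. The scripts were tested on simulated data. Correlations used 100000 permutations (Python 3.11.15). Replicate letters (44 A, 48 B, 4 C) did not pair the samples: same-lettered libraries deviated together with r over 0.1 at 7 of 20 times. No 2 libraries of a time were identical.

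The 8 genes and all gene lists were chosen with earlier results of these data known. Named from each other list were up to 4 genes with the smallest genotype p, for the glucocorticoid list also the 4 with the smallest p of the Flox rhythm, and for each of the 8 genes the 3 most correlated entries. One gene that this rule names is not reported here. Alternatives were another pseudocount, no filter, 2 scalings, other moderation, a rhythm model without 12 h terms, each day alone, the letter as a block, and leaving out each letter, each library or the late libraries. Gene positions are those of GENCODE M21 on mm10, and sequences are from RefSeq on GRCm38.p6 (7 of the 8 genes matched, in 14 windows of 250 bases before a start).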

Additional observations from a re-analysis of the deposited data

Results flagged for a closer look

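In 7 of 128 groups of 6 libraries (8 genes, 8 windows, 2 genotypes) a single library lay far from the others. Its gap was over 0.625 of the group's range on the scale log2(FPKM + 1). Chance alone gives about 1 in 20 groups if the 6 values are drawn alike, whereas each group here spans 3 times. Nr3c1 had 11.2 FPKM in the LKO library of CT6 A, with the next at 5.03 FPKM. Tat was low in the LKO library of CT28 A, at 122 FPKM, with the next at 279.6 FPKM. Mt1 had 1054 FPKM in the LKO library of CT30 B, with the next at 78.2 FPKM. The other 4 were Flox libraries: Fkbp5 at CT0 B with 5.23 FPKM (next 2.93), Lpin1 at CT20 A with 18.7 FPKM (next 7.80), Lpin1 at CT24 C with 4.12 FPKM (next 2.01) and Mt2 at CT12 A with 86.9 FPKM (next 6.95).

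The genotype difference varied among the 8 windows, by limma's F test, for Nr3c1 (F = 12.4), Fkbp5 (F = 9.22), Tsc22d3 (F = 3.12), Sgk1 (F = 44.6) and Lpin1 (F = 10.96). The 24 h rhythm differed between genotypes for Sgk1 (adjusted p = 0.0391, limma), a call that rests on the 6 libraries labelled LKO at CT42 to CT46 (adjusted p = 0.239 without them).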

How the results depend on the processing

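For 104 single values, 1089 of 1216 recomputed values kept their direction and side of the threshold, 53 lost a call, 37 gained one and 37 changed sign. Sign changes under median-ratio scaling were Fkbp5 over all times (-0.033), at CT24 to CT28 (-0.014) and at CT36 to CT40 (-0.15) and Tsc22d3 at CT42 to CT46 (-0.23). Under quantile normalization they were Fkbp5 (-0.067 over all times, -0.054 at CT24 to CT28, -0.15 at CT36 to CT40) and Tat at CT36 to CT40 (0.20). Fkbp5 over all times was -0.092 without CT42 to CT46 of LKO or of both genotypes. CT0 to CT22 alone turned Fkbp5 (-0.36) and Sgk1 (-0.070), and CT24 to CT46 alone turned Nr3c1 (0.22), Tsc22d3 (0.16), Lpin1 (0.61), Mt1 (-0.23) and Mt2 (-0.58).

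Without all libraries of letter A or of letter B, the 3 calls over all times (Nr3c1, Sgk1 and Tat) and the 10 calls by window other than Nr3c1, Fkbp5, Sgk1 and Lpin1 at CT42 to CT46 were lost under at least 1 of these fits, which use fewer libraries. Leaving out letter A, B or C in turn also gave ranges that crossed 0. Over all times these were -0.057 to 0.13 for Fkbp5, -0.12 to 0.018 for Tsc22d3 and -0.082 to 0.024 for Lpin1. At CT0 to CT4 they were -0.68 to 0.13 for Lpin1, -0.51 to 3.73 for Mt1 and -0.67 to 4.06 for Mt2. At CT6 to CT10 they were -1.23 to 0.37 for Tat and -0.39 to 0.080 for Sgk1, and at CT12 to CT16 -0.17 to 0.41 for Tat and -0.48 to 0.16 for Tsc22d3. At CT18 to CT22 they were -0.056 to 0.62 for Mt1, -0.17 to 1.13 for Mt2 and -0.19 to 0.41 for Sgk1. At CT24 to CT28 they were -0.14 to 0.15 for Fkbp5, -0.14 to 0.59 for Mt2 and -0.22 to 0.024 for Nr3c1, at CT30 to CT34 -0.53 to 0.014 for Mt2, and at CT36 to CT40 -0.21 to 0.071 for Tat.

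Of the counts, the genes whose 24 h rhythm differed (1) became 0 under pseudocount 0.1, both scalings, a model of 24 h terms alone and CT0 to CT22 alone. This count was also 0 without the late libraries, without letter A, B or C, and in 14 of 96 fits without 1 library. It was 4 at CT24 to CT46 alone. Genes with a 24 h rhythm in LKO (5) were 3 to 5 without a letter. Genes higher over all times (1) were 2 with CT0 to CT22 alone, 3 with CT24 to CT46 alone, 0 to 1 without a letter and 1 to 2 without 1 library. Genes lower (2) were 4 and 0 on those days, 1 under quantile normalization, 0 to 2 without a letter and 1 to 2 without 1 library. Differences by window higher in LKO (7) were 4 to 6 without a letter and 5 to 11 without 1 library, where the 11 came without the LKO library of CT12 B. Within CT0 to CT40 they (3) were 5 without the late LKO libraries, 6 without both genotypes' late libraries, 0 to 2 without a letter and 1 to 7 without 1 library, and the lower ones (6) were 2 to 6 without a letter and 5 to 8 without 1 library. The lower ones over all windows (7) were 2 to 6 without a letter and 6 to 9 without 1 library. The cause was not tested.

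With the letter as a block, Tat at CT42 to CT46 (-0.66) lost its call (adjusted p = 0.0530, limma), and no other call changed. The counts of genes called over all times stayed at 1 higher and 2 lower. The letters did not pair the samples: over 20 times r between genotypes was -0.40 to 0.34. No value for LKO at CT42 to CT46 exists when those libraries are left out. The error of 1 difference in a window was 0.85 for Mt1 and 1.03 for Mt2, so differences of that size cannot be told from 0 for them.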
